A study of Zea mays with 36 samples.

Results

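Cyclin, cyclin-dependent kinase (CDK) and retinoblastoma-related genes were examined in maize meristems that carry or lack the ragged seedling2 mutation rgd2-R. The genes were cyc1, cyc3, cdc2, rbr3 and rrb2, and their probes were found through the gene symbols, synonyms and gene identifiers of the platform annotation. They amounted to 14 of 35200 probes and to 5 of 766 named genes on 2 spotted array designs. SAM1 held 11 of these probes (1 for cyc1, 2 for cyc3, 2 for cdc2 and 6 for rbr3), and SAM3 held 3 (1 each for cdc2, rbr3 and rrb2).

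A cyclin binds and switches on its CDK, and the kinase then drives the cell into DNA synthesis or into mitosis. In the general account, retinoblastoma proteins bind E2F transcription factors and hold back genes for DNA synthesis until cyclin-dependent kinases phosphorylate them. Members of the family can differ, and the roles of rbr3 and rrb2 were not examined here. The shoot apical meristem is the dome of dividing cells at the shoot tip, and it gives rise to the leaves and the stem. The protein made from ragged seedling2 resembles ARGONAUTE7, which binds small RNAs, and plants without it have narrow leaves.

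One group was rgd2-R, a mutation crossed for 5 generations into the inbred line Mo17, and the other was non-mutant. Seedlings of both genotypes shared 1 growth condition and were taken 14 days after germination. Meristem cells were cut out by laser microdissection, and their RNA was amplified in 2 rounds. The sources used here do not give the number of plants behind a sample. Each hybridisation held rgd2-R RNA in one dye and non-mutant RNA in the other, and Cy3 marked rgd2-R in replicates 1 to 3 whereas Cy5 did so in replicates 4 to 6. The labels name 6 biological replicates for each array, each read 3 times (low, mid and high), so 36 samples stand for 12 hybridisations. In bulk RNA of this kind, fewer cells of a type and less RNA per cell cannot be told apart.

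All values below are log2 ratios of rgd2-R over non-mutant, averaged over the 3 readings of a replicate. A call meant a limma p under 0.05 after Benjamini-Hochberg adjustment over the whole array, with a dye term in the model. The expression of ragged seedling2 is not analysed here, so the labels could not be checked by it. kn1, the KNOX homeobox gene that marks meristem cells, was more than 100 units above background in both dyes in 9 to 18 of 18 readings for its 3 SAM1 probes. On SAM3 this held for all 18 readings of 2 kn1 probes and for 0 of 18 of the third. kn1 averaged -0.12 (SE 0.08, limma adjusted p = 0.565) on SAM1 and -0.06 (SE 0.07, limma adjusted p = 0.955) on SAM3. That SAM3 mean joined probes that differed, as the 2 brighter ones were at -0.33 and 0.12 and the dim one at 0.019.

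The direction of SAM3 values is not settled. In replicate 3 the high reading correlated with the low and mid readings at -0.94 and -0.95 over brighter spots, while the other 34 of 36 pairs of readings correlated at 0.405 to 0.929. The low and mid readings of that replicate were also the only 2 of 36 readings in which Cy5 was the brighter dye by the median signal. Over all probes, replicate 3 correlated with replicate 1, of the same dye orientation, at -0.54 as labelled and at 0.62 with its low and mid readings turned. With replicate 2, also of that orientation, it went the other way, at 0.31 as labelled and -0.34 turned. Replicate 2 correlated with replicate 1 at -0.24. SAM3 ratios are therefore given with the dyes as labelled and over 5 versions: as labelled, with the low and mid readings or the high reading of replicate 3 turned, and both of these with replicate 2 turned as well. kn1 on SAM3 ran from -0.24 to -0.02 over these versions.

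None of the 14 probes was called. Both arrays gave a background of 0% of probes called, 0 of 19200 on SAM1 and 0 of 16000 on SAM3, and the smallest adjusted p over all probes was 0.0921 on SAM1 and 0.474 on SAM3. On SAM1, 0 of 11 member probes had an unadjusted p under 0.05, beside 14.8% of all SAM1 probes. Likewise 0 of 11 had the same sign in all 6 replicates, beside 6.94% of all SAM1 probes. Of the 11, 6 were above 0 and 5 below, with a median absolute ratio of 0.0078 against 0.071 over all SAM1 probes. With median centring in place of loess 10 of 11 were above 0, and without replicate 4 this was 2 of 11. On SAM3, 1 of 3 member probes (rrb2) had an unadjusted p under 0.05, beside 6.58% of all SAM3 probes. That count was 0 without replicate 2, without replicate 5, with the low or the high reading alone, and in 3 of the 4 turned versions. The same probe had the same sign in all 6 replicates as labelled, beside 3.16% of all SAM3 probes.

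**Figure D1:**
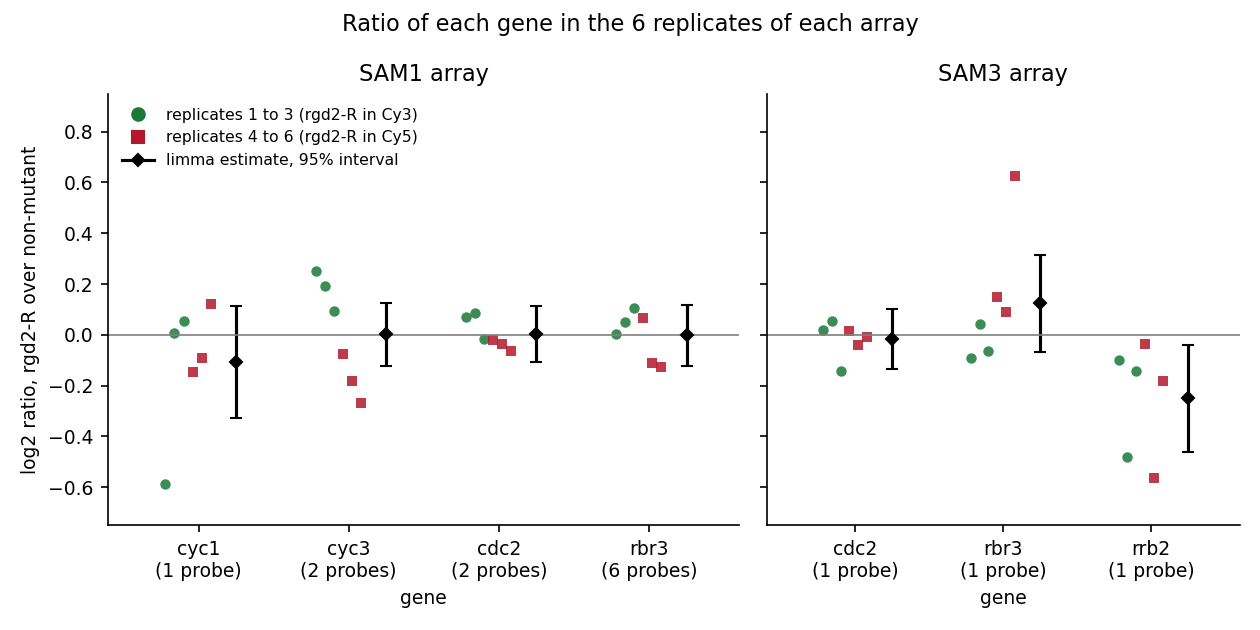
Log2 ratio of rgd2-R over non-mutant for each gene on SAM1 (left) and SAM3 (right), with the probes of a gene averaged. Circles are replicates 1 to 3 (rgd2-R in Cy3), squares are replicates 4 to 6 (rgd2-R in Cy5), and diamonds are limma estimates with 95% intervals, all on the dyes as labelled. The SAM1 intervals all span 0, and rrb2 on SAM3 is the 1 gene whose interval lies to one side, from -0.46 to -0.04.

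The cyclin genes were measured on SAM1 alone. cyc1, also annotated as CYC1b and cyclin-A1, belongs to the cyclins that act with CDKs up to mitosis. Its single probe gave -0.59, 0.0084, 0.053, -0.15, -0.091 and 0.12 in replicates 1 to 6. Replicate 1 lay far below the other 5, which fell on both sides of 0. The mean was -0.11 (SE 0.09, 95% interval -0.33 to 0.11, limma adjusted p = 0.683), lower in 3 of 6 replicates. Without replicate 1 it was -0.0039.

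All 3 readings of replicate 1 put cyc1 below 0, at -0.72, -0.34 and -0.70. The low ratio was thus present in each reading of that hybridisation. The log2 level of the cyc1 probe was 8.78 ± 0.20 (SD, n = 6) in rgd2-R and 8.88 ± 0.26 (SD, n = 6) in non-mutant meristems. The levels ran from 8.53 to 9.04 and from 8.44 to 9.13, so the genotypes overlapped. This probe was more than 100 units above background in both dyes in 16 of 18 readings.

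cyc3 encodes a second maize cyclin. Averaged over its 2 probes it gave 0.25, 0.19, 0.092, -0.076, -0.18 and -0.27 in replicates 1 to 6. All 3 replicates with rgd2-R in Cy3 were above 0 and all 3 with rgd2-R in Cy5 were below. The values thus separated by dye orientation and not by genotype, with means of 0.18 and -0.18 in the 2 orientations. With the dye term in the model the genotype ratio was 0.0017 (SE 0.05, 95% interval -0.12 to 0.12, limma adjusted p = 0.993). On a linear scale that interval runs from 0.919 to 1.09.

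The brighter cyc3 probe (11425, more than 100 units above background in both dyes in 14 of 18 readings) gave 0.24, 0.32 and 0.14 in replicates 1 to 3 and -0.16, -0.19 and -0.33 in replicates 4 to 6. The dimmer probe (3020, 0 of 18 readings at that brightness) gave 0.26, 0.058, 0.045, 0.0096, -0.17 and -0.21. The 3 replicates with rgd2-R in Cy3 were again the highest, although replicate 4 was also above 0. A split with all 3 replicates of one orientation above 0 and all 3 of the other below 0 was found for 2 of the 11 member probes, and for 5.4% of all SAM1 probes. The second was rbr3 probe 11306.

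**Figure D2:**
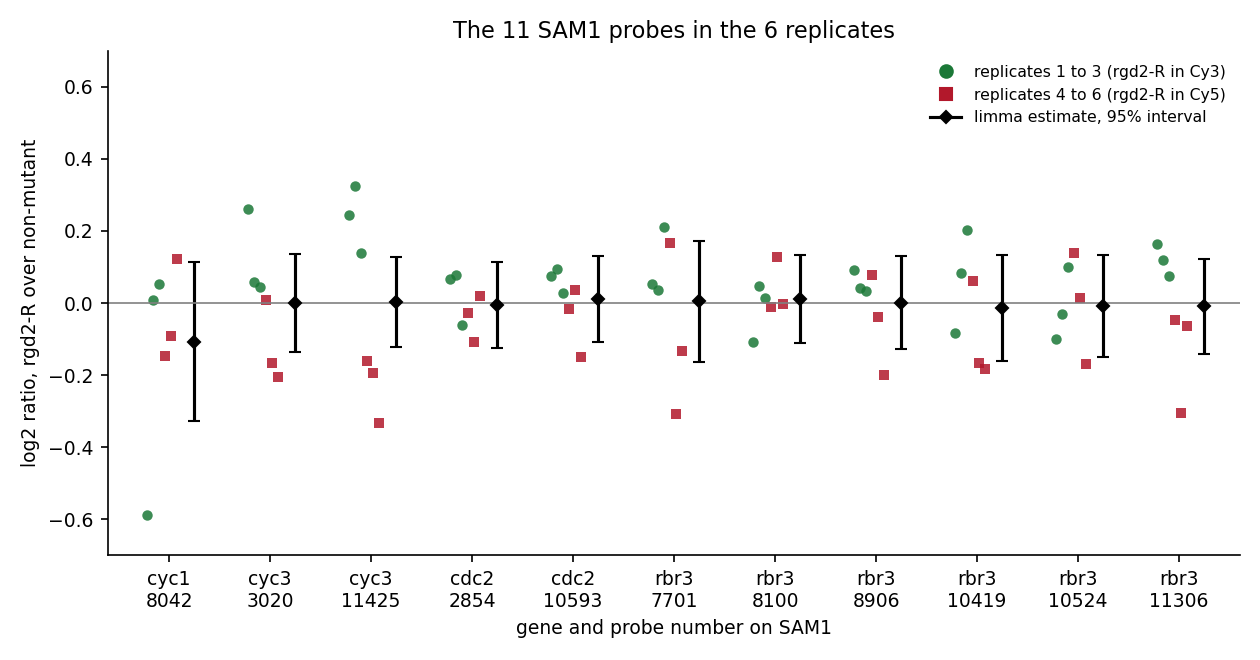
The 11 SAM1 probes, each with its log2 ratio of rgd2-R over non-mutant in 6 replicates and the limma estimate with its 95% interval (diamond and bar). Circles are replicates with rgd2-R in Cy3 and squares those with rgd2-R in Cy5. Circles lie above squares for both cyc3 probes, cyc1 has 1 replicate at -0.59, and every interval spans 0.

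cdc2 encodes a maize homologue of yeast Cdc2, the kinase that mitotic and S-phase cyclins activate. On SAM1 the mean of its 2 probes was 0.072, 0.087, -0.016, -0.021, -0.037 and -0.065 in replicates 1 to 6. Replicates 1 and 2 were above 0 and the other 4 were below. The genotype ratio was 0.0033 (SE 0.05, 95% interval -0.11 to 0.11, limma adjusted p = 0.985), or 0.929 to 1.08 on a linear scale. Both probes were dim, with 0 and 1 of 18 readings more than 100 units above background in both dyes. The offset of 50 units used in background correction pulls ratios of such spots towards 0. With plain background subtraction the SAM1 ratio of cdc2 was -0.41, not called (limma adjusted p = 0.707).

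On SAM3 the cdc2 probe was above background in both dyes in 9 of 18 readings and never by more than 100 units in both. Its values as labelled were 0.019, 0.056, -0.14, 0.013, -0.038 and -0.0074 in replicates 1 to 6. Replicate 3 was lowest, and the sign was split 3 to 3. The ratio was -0.017 (SE 0.05, limma adjusted p = 0.990). It became 0.031 with the low and mid readings of replicate 3 turned and -0.017 with the high reading turned, with 95% intervals that span 0 in both. With replicate 2 turned as well these were 0.012 and -0.036. Plain subtraction gave -0.69 (limma adjusted p = 0.982) and the authors' value table -0.74 (limma adjusted p = 0.986).

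rbr3 encodes a maize retinoblastoma-related protein, also annotated as Rbl1. Averaged over its 6 SAM1 probes it gave 0.0037, 0.05, 0.11, 0.064, -0.11 and -0.13 in replicates 1 to 6. Replicates 5 and 6 were below 0 and the other 4 above. The genotype ratio was -0.0023 (SE 0.05, 95% interval -0.12 to 0.12, limma adjusted p = 0.991), or 0.918 to 1.09 on a linear scale.

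The 6 rbr3 probes on SAM1 lay close together in their means, from -0.014 to 0.012, with 3 above 0 and 3 below. Their single replicates spread more widely, from -0.31 to 0.21. Of these probes, 2 (7701 and 10524) were more than 100 units above background in both dyes in 9 or more of 18 readings, and the other 4 in 0 to 2. The offset in background correction pulls the ratios of those 4 dim probes towards 0. The brightest of the 6 probes gave 0.0044 (SE 0.07), and its replicates 3 and 4 were the highest at 0.21 and 0.17. The dye term was below 0 for 4 of the 6 probes and for 8 of all 11 SAM1 probes, beside 51.4% of all probes on that array.

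On SAM3 the single rbr3 probe gave -0.09, 0.041, -0.065, 0.15, 0.088 and 0.62 in replicates 1 to 6 with the dyes as labelled. Replicate 6 stood apart, and the other 5 lay on both sides of 0. The ratio was 0.12 (SE 0.08, 95% interval -0.07 to 0.32, limma adjusted p = 0.889), higher in 4 of 6 replicates. Without replicate 6 it was 0.041. All 3 readings of replicate 6 were high, at 0.63, 0.70 and 0.55.

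The value of rbr3 in replicate 3 averaged readings of opposite sign, which were -0.69 (low), -0.54 (mid) and 1.04 (high). Turning the low and mid readings moved replicate 3 to 0.76 and the SAM3 ratio to 0.26 (SE 0.13, 95% interval -0.07 to 0.59, limma adjusted p = 0.675), higher in 5 of 6. Turning the high reading instead gave 0.0092 (SE 0.13). With replicate 2 turned as well the 2 values were 0.25 and -0.0046. No setting gave a call, and the probe's level as labelled was 9.18 ± 0.22 (SD, n = 6) in rgd2-R and 9.05 ± 0.44 (SD, n = 6) in non-mutant meristems. rbr3 was also measured by different probes on SAM1, and the 2 arrays were fitted apart, so the difference between them was not tested.

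rrb2, also annotated as RBR2 and ZmRBR2, is a further retinoblastoma-related gene and was measured on SAM3 alone. Its probe gave -0.099, -0.48, -0.14, -0.036, -0.56 and -0.18 in replicates 1 to 6 with the dyes as labelled. All 6 values were below 0, with replicates 2 and 5 lowest and replicate 4 nearest to 0. The ratio was -0.25 (SE 0.09, 95% interval -0.46 to -0.04), or 0.841 on a linear scale. It was not called over all SAM3 probes (limma adjusted p = 0.666). The log2 level was 8.17 ± 0.20 (SD, n = 6) in rgd2-R and 8.42 ± 0.17 (SD, n = 6) in non-mutant meristems, and the ranges of 7.83 to 8.39 and 8.21 to 8.64 overlapped.

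The sign of rrb2 in all 6 replicates rested on the dyes of replicate 3. Its readings there were -0.36 (low), -0.42 (mid) and 0.35 (high). With the low and mid readings turned, replicate 3 moved to 0.38, and the ratio was -0.16 (SE 0.13, 95% interval -0.47 to 0.15, limma adjusted p = 0.716), lower in 5 of 6. With the high reading turned it was -0.29 (SE 0.09, 95% interval -0.52 to -0.06, limma adjusted p = 0.979), lower in 6 of 6. Without replicate 3 it was -0.27 (limma adjusted p = 0.778).

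Replicate 2 carried one of the 2 lowest values of rrb2. Turning it together with the low and mid readings of replicate 3 gave -0.0033 (SE 0.11), lower in 4 of 6. Turning it together with the high reading gave -0.13 (SE 0.13), lower in 5 of 6. Single readings of rrb2 ran from -0.77 to 0.35. The median SD of the 3 readings of a replicate was 0.17, beside an SD of 0.22 over the replicates, each a mean of 3 readings. The probe was more than 100 units above background in both dyes in 12 of 18 readings.

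**Figure D3:**
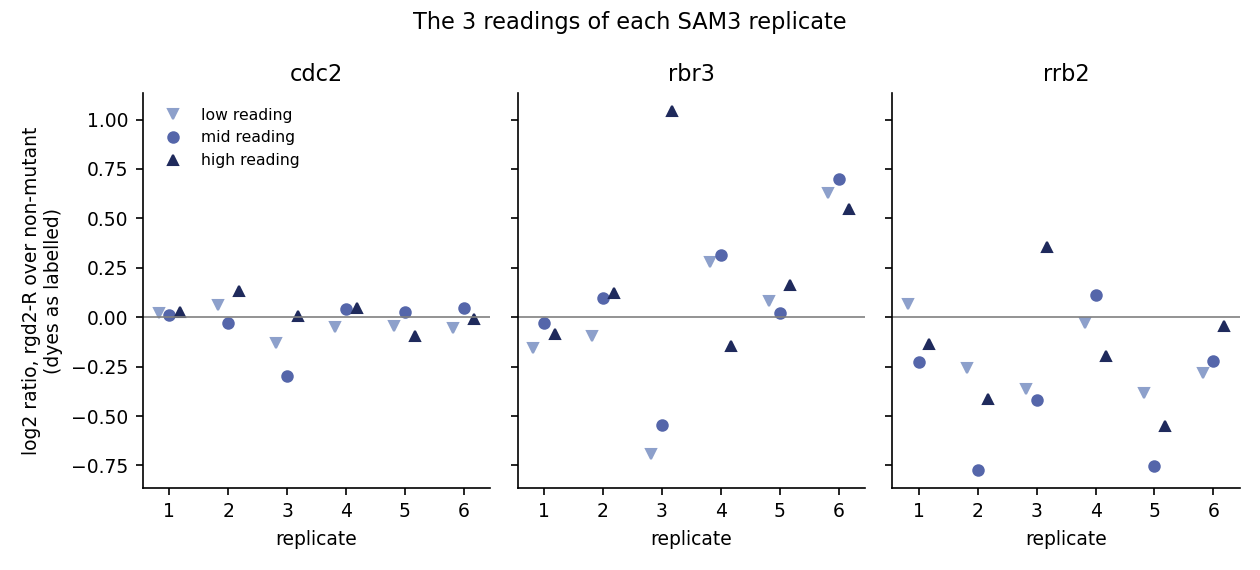
The low, mid and high readings of cdc2, rbr3 and rrb2 in each SAM3 replicate, as log2 ratio of rgd2-R over non-mutant with the dyes as labelled. In replicate 3 the high reading of rbr3 is at 1.04 and its low and mid readings are at -0.69 and -0.54, and rrb2 shows the same opposition at 0.35 against -0.36 and -0.42.

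**Figure D4:**
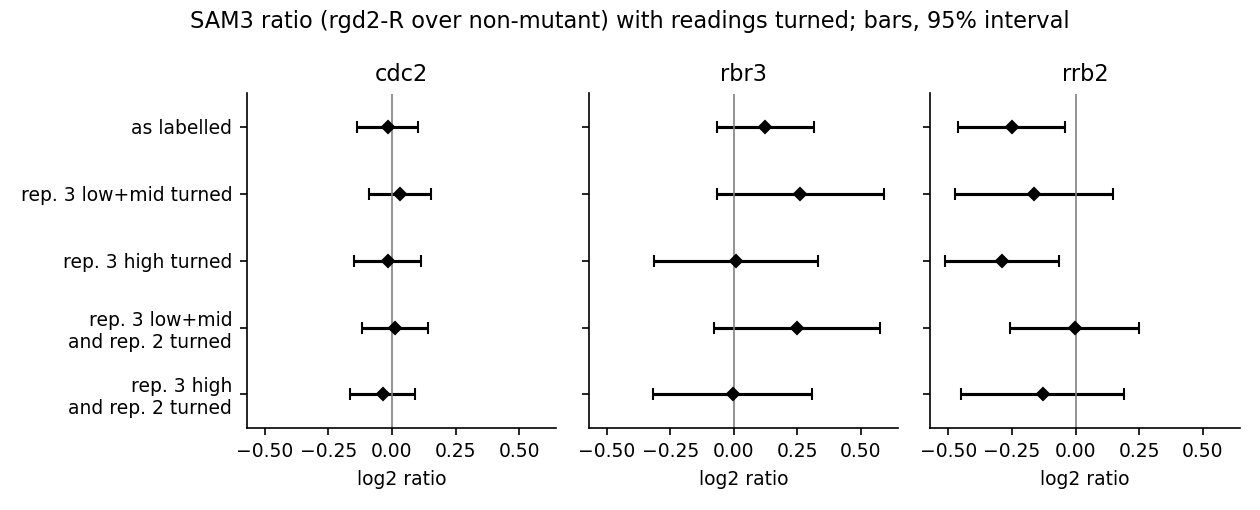
Limma estimate of the log2 ratio of rgd2-R over non-mutant with its 95% interval for the 3 SAM3 genes, as labelled and with readings of replicate 3 and of replicate 2 (rep. 2, rep. 3) turned. rrb2 lies between -0.29 and -0.0033 and rbr3 between -0.0046 and 0.26 over the 5 versions, while cdc2 stays between -0.036 and 0.031.

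The ranges of the log2 level in the 2 genotypes overlapped for all 14 probes. The share over all probes of the arrays was not computed. These ranges also set aside the pairing of the genotypes within a hybridisation. The rrb2 probe overlapped although its ratio as labelled was lower in 6 of 6 replicates. In 5 of the 14 the median SD among the 3 readings of a replicate exceeded the SD over the 6 replicates. These were both cdc2 probes of SAM1 and rbr3 probes 8100, 8906 and 10524. The first SD is of single readings and the second of means of 3 readings, which vary less. The 2 SDs are therefore not on the same scale.

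Other cell cycle genes on the arrays were grouped by the names in the annotation. Of genes and unnamed spots together, 0% were called on either array (0 of 17983 on SAM1 and 0 of 15439 on SAM3), and 14.1% and 6.52% had an unadjusted p under 0.05. The further cyclin, CDK and retinoblastoma names were wee1 on SAM1 and RBR1, wee1 and cycD2 on SAM3, and as labelled 0 of them had an unadjusted p under 0.05. With replicate 2 turned as well, 1 of the 3 on SAM3 did in either version of replicate 3, but not the same gene. With the low and mid readings turned it was wee1, at 0.38 (SE 0.15), beside 16.7% of all SAM3 probes. With the high reading turned it was cycD2, at 0.22 (SE 0.07), beside 3.99%. These shares are over probes and not over genes. cycD2 was at 0.013 (SE 0.10) as labelled. wee1, a kinase that restrains CDKs by phosphorylation, was at 0.014 (SE 0.08) on SAM1 and 0.15 (SE 0.18) on SAM3, where it ran from 0.12 to 0.38 over the 5 versions. Its lowest SAM1 replicate was replicate 1 at -0.38, which was also the lowest replicate of cyc1. RBR1, another retinoblastoma-related gene, was at -0.10 (SE 0.09) on SAM3, lower in 3 of 6 replicates as labelled, and ran from -0.18 to 0.23 over the 5 versions.

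Of the DNA replication names, 4 genes on SAM1 were all above 0 with a median of 0.14, and 1 had an unadjusted p under 0.05. pcna1, the sliding clamp of DNA polymerases, was at 0.22 (SE 0.09, limma adjusted p = 0.340) and higher in 5 of 6 replicates. MCM6, a subunit of the replicative helicase, was at 0.10 (SE 0.06, limma adjusted p = 0.487). On SAM3 as labelled, 4 of 5 were above 0 with a median of 0.06, and 1 had an unadjusted p under 0.05. That was pcna2, a second clamp gene, at 0.19 (SE 0.06, limma adjusted p = 0.657) and higher in 6 of 6 as labelled. It ran from -0.0092 to 0.29 over the 5 versions and was higher in 4 to 6 of 6. The turned versions had 3 or 4 of these 5 genes above 0. MCM6 was at 0.21 (SE 0.13, limma adjusted p = 0.889) there as labelled, and ran from 0.15 to 0.21.

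Of the kinesin and spindle names, 3 of 5 on SAM1 and 5 of 8 on SAM3 were above 0, with medians of 0.025 and 0.072, and as labelled 1 on each array had an unadjusted p under 0.05. The turned versions had 5 or 6 of 8 above 0 on SAM3. kin4, a kinesin gene, was at 0.27 (SE 0.09, limma adjusted p = 0.265) on SAM1 and 0.083 (SE 0.05, limma adjusted p = 0.867) on SAM3, where it ran from 0.048 to 0.087 over the 5 versions. KIN9, another kinesin gene, was at -0.045 (SE 0.05) on SAM1. mad2, a spindle checkpoint gene, was at -0.12 (SE 0.05, limma adjusted p = 0.757) on SAM3 and lower in 6 of 6 as labelled. It ran from -0.14 to -0.037 over the 5 versions and was lower in 4 to 6 of 6. None of these cell cycle genes was called in any version. The median over all probes was 0.0027 on SAM1 and -0.0027 on SAM3.

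**Figure D5:**
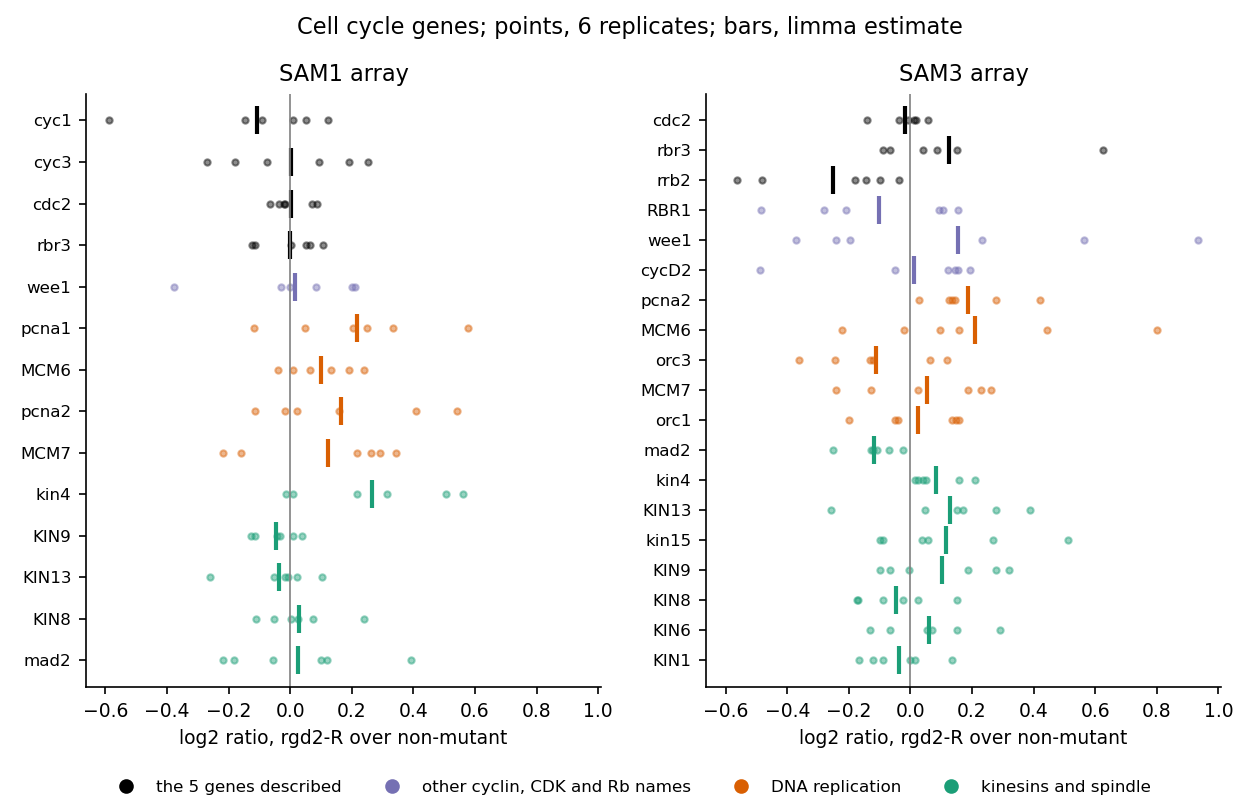
Log2 ratio of rgd2-R over non-mutant for cyc1, cyc3, cdc2, rbr3 and rrb2 (black) and for the other cell cycle names in the annotation, on SAM1 (left) and SAM3 (right, dyes as labelled). Points are the 6 replicates and bars the limma estimates, and pcna2 is the gene annotated as magi81248. The black bars on SAM1 lie between -0.11 and 0.0033, and those of the 4 DNA replication genes there between 0.099 and 0.22. The genes were not matched for brightness.

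Some replicates differed in markers of other cell types. In SAM1 replicate 3 the 5 leaf primordium markers averaged 1.65, against -0.23 to 0.36 in the other 5 replicates. In that replicate cyc1 was at 0.053, cyc3 at 0.092, cdc2 at -0.016 and rbr3 at 0.11, none of them an extreme of its 6 values except for rbr3, where it was the highest. In SAM3 replicate 6, where rbr3 was at 0.62, the 7 leaf primordium markers averaged 0.43, their highest of the 6 replicates in each of the 5 versions. Their replicate 3 mean was -0.022 as labelled and 0.16 or -0.16 with its low and mid or its high reading turned. Other markers moved further in that replicate. The vascular and lignin markers averaged 0.27 as labelled and -0.80 or 0.80 turned in that order. The epidermis markers averaged 0.088 as labelled and -0.36 or 0.36 turned. The part of these markers in the rbr3 value was not tested. In SAM3 replicates 2 and 5 as labelled, where rrb2 was lowest, the leaf primordium markers averaged 0.10 and -0.07. The photosynthesis markers averaged 0.05 and 0.03 there, and the meristem markers 0.05 and -0.02. The epidermis markers averaged 0.24 and 0.04, with replicate 2 their highest, and the vascular and lignin markers 0.08 and 0.17. The other cyclin, CDK and retinoblastoma names averaged -0.39 and 0.05, with replicate 2 their lowest. The part of these genes in the rrb2 values was not tested.

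The likeness of other named genes was measured as the root mean square difference of the log2 ratios over the 6 replicates. The dye effect was left in these ratios, so for cyc3 the measure takes in its split by dye orientation. For cyc1 the 2 nearest of 579 other genes on SAM1 were nfc103 at 0.12 and wee1 at 0.14, against a median of 0.32 over all of them. For cyc3 they were CNX at 0.076 and LOC100101510 at 0.083. For cdc2 they were pdh2 at 0.027 and zpu1 at 0.034, and for rbr3 CAT3 at 0.043 and BM1 at 0.058. On SAM3 with the dyes as labelled, among 595 other genes, the nearest to rrb2 were GRF10 at 0.18 and csy1 at 0.18, against a median of 0.37. Those nearest to rbr3 were arpp2a at 0.096 and hsp101 at 0.10, and those nearest to cdc2 were ZCAX2 at 0.045 and Umi3 at 0.048. With the readings turned, GRF10 was again nearest to rrb2, at 0.18, with drh1 next at 0.21. The nearest to rbr3 were then pdi6 at 0.16 and glu1 at 0.21, and the nearest to cdc2 were rps6 at 0.044 and knox8 at 0.045. The 4 turned versions differ from each other only in the sign of whole replicates, for all genes alike. Such a change leaves this measure as it was, so their identical values were fixed in advance and do not show stability. As labelled, the smallest differences were found for the genes whose own ratios spread least over the replicates, cdc2 on both arrays and rbr3 on SAM1.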

How the data were processed

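Spotted 2-colour arrays of rgd2-R against non-mutant meristem RNA were analysed. The deposited intensity values are mean signal and background per spot and dye, per the file headers, and are not background-corrected or normalized. The deposited natural log ratios are the authors' processed values. How they were corrected and normalized is not stated in the sources used here. By the dyes in the labels, every column of the authors' value table is the natural log of non-mutant over rgd2-R, with column medians of -0.08 to 0.044. That table served as an alternative.

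limma 3.58.1 (R 4.3.3) was used for normexp background correction with an offset of 50 and for loess normalization of each array. Readings were averaged per replicate, and genotype and dye terms were fitted with lmFit and eBayes, leaving 4 residual degrees of freedom. Intervals are 95% intervals of that fit, and p-values are two-sided. Levels are log2 intensities per genotype after Aquantile normalization. For gene means the probes of a gene were averaged and spots without 1 gene name kept as their own rows. Probes with 1 gene numbered 1800 on SAM1 and 1159 on SAM3, with several 23 and 1, and without a name here 17377 and 14840. Names were updated through gene identifiers, of which 562 of 583 on SAM1 and 580 of 598 on SAM3 were in the current gene table. Readings had 3407 to 14503 spots more than 100 units above background in both dyes, and the number of arrays limits the precision. Control spots are not marked in the sources used here, and all spots were kept.

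The members and lists were chosen with earlier results of these data known. Named genes were every member probe and gene mean, kn1, the 2 genes of each cell cycle role with the smallest p per array, and the 2 genes nearest to each member. Tested on simulated ratios that had each array's residual SDs, the fit recovered 95% of probes changed 2-fold among the 19200 of SAM1 and 88% of them among the 16000 of SAM3. It made 13 false calls on each array. Each fold was added to normalized ratios with the same sign in all 6 replicates. These rates therefore leave out the pull of the offset on dim spots and, on SAM3, readings whose direction is not settled. They do not apply to dim members, and 5 of the 14 member probes had no reading more than 100 units above background in both dyes. Alternatives were other background corrections and normalizations, single readings, a filter on dim probes, no dye term, the authors' value table, each replicate left out, the brightest probe of a gene, and SAM3 readings turned. No sequences or genome positions are given, since none was used here.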

Additional observations from a re-analysis of the deposited data

Results flagged for a closer look

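The rbr3 probe 14823 on SAM3 had 1 replicate far from the others. Replicate 6 was at 0.62, and the nearest of the other 5 was at 0.15. Its 3 readings were 0.63, 0.70 and 0.55. With the dyes as labelled it was the only one of 17 member probes and gene means with such a gap, and chance alone gives about 1 in 20 groups. With the low and mid readings of SAM3 replicate 3 turned, that replicate of rbr3 was at 0.76 and replicate 6 no longer stood apart. With the high reading turned, replicate 3 was the farthest at -0.76, within the limit. With the low and mid readings and replicate 2 turned, cdc2 replicate 3 stood apart instead, at 0.14 with the next value at 0.019. cyc1 replicate 1 on SAM1, at -0.59 with the next value at -0.15, lay just under the same limit, with a gap of 0.621 of the range.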

How the results depend on the processing

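No member probe was called on either array under any of the 16 SAM1 or 20 SAM3 alternatives. cyc1 stayed below 0 in all 16 and rrb2 in all 20, rrb2 between -0.59 and -0.0033, and rbr3 on SAM3 stayed above 0 in 19 of 20. The 4 gene means nearest to 0 (cyc3, cdc2 and rbr3 on SAM1, cdc2 on SAM3) had no stable sign, and the causes were not tested. With the dimmest 25% of probes left out, 4 of the 11 SAM1 member probes remained, and cdc2 had no value on either array.

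Without background correction 195 SAM1 probes were called, and cyc3 was at -0.070, cdc2 at -0.013, rbr3 at 0.027 and cyc3 probe 3020 at -0.15. Plain subtraction gave -0.41 for cdc2 and 0.12 for rbr3 on SAM1, and -0.030 for cyc3 probe 11425. Median centring gave 11 SAM1 calls, 10 SAM1 and 2 SAM3 member probes above 0, rbr3 at 0.054 on SAM1 and cdc2 at 0.034 on SAM3. Scale normalization put cyc3 at -0.0045 and its probes 3020 and 11425 at -0.0023 and -0.0067. The low reading alone gave -0.032 for cdc2, 0.013 for rbr3 and -0.028 for probe 3020. The mid reading alone gave 36 SAM1 calls, -0.019 for cdc2 and 0.0048 for rbr3. The high reading alone gave -0.064 for cyc3, -0.019 and -0.11 for its probes 3020 and 11425, 0.017 for cdc2 on SAM3 and 2 SAM3 member probes above 0. Leaving out the dimmest probes gave 42 SAM1 calls, with 2 member probes above 0. The authors' value table gave 1 SAM1 call, -0.041 for cyc3, -0.010 for cdc2, 0.030 for rbr3, and -0.077 and -0.0052 for cyc3 probes 3020 and 11425. The brightest probe of rbr3 gave 0.0044.

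On SAM3, turning the low and mid readings of replicate 3 gave 0.031 for cdc2 and 2 member probes above 0. With replicate 2 turned as well, 2 SAM3 probes were called, cdc2 was at 0.012 and 2 member probes were above 0. With the high reading and replicate 2 turned, 0 member probes were above 0 and rbr3 was at -0.0046.

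With each replicate left out in turn, SAM1 calls ran from 0 to 2 and SAM1 member probes above 0 from 2 to 8, and SAM3 member probes above 0 from 1 to 2. Ratios ran from -0.023 to 0.025 for cyc3 (-0.035 to 0.021 for probe 3020, -0.019 to 0.029 for probe 11425), from -0.0065 to 0.019 for cdc2 and from -0.033 to 0.015 for rbr3 on SAM1. On SAM3 they ran from -0.036 to 0.013 for cdc2, from 0.041 to 0.17 for rbr3 and from -0.31 to -0.17 for rrb2, and for cyc1 on SAM1 from -0.16 to -0.0039. No paired analysis was possible because replicate numbers are shared only between the 2 arrays, which were fitted apart and not compared. Within an array each ratio already sets the 2 genotypes of 1 hybridisation against each other.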
